A study of Mus musculus with 8 samples.

Results

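The desmosome genes are Dsg2, Dsg3, Dsc2, Dsc3, Dsp, Pkp1, Pkp2, Pkp3, Jup and Perp, 10 genes chosen by name for their part in the desmosome. They were chosen with earlier results of these data known. A probe set carrying 1 of these symbols and no other was found for 9 of the 10 genes, out of 18193 genes with such a probe set. No such probe set was found for Dsg3, which is not analysed here. The 9 genes had 22 probe sets, and each gene was represented by its probe set with the highest mean over all arrays. All 9 representatives passed the filter on low signal, a mean log2 signal of at least 5.37 (the 40th percentile), as did 21 of the 22 probe sets.

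The study followed mouse cells of C57BL/6 background while a secondary OSKM system reprogrammed them, with doxycycline switching on the factors Oct4, Sox2, Klf4 and Myc. All cells were kept in embryonic stem cell medium with 15% serum, leukemia inhibitory factor at 100 units per ml and doxycycline at a dose the labels write as 2 mg per ml. Cells received either the solvent DMSO or CSA, at a dose written as 10 mM, and were collected on day 3 or day 6, which makes 4 groups with 2 biological repeats in each. P-values come from limma, which combines the spread between these repeats with a prior variance estimated from all tested probe sets. The repeats gave 4 degrees of freedom and the prior 7.27. CSA is cyclosporin A, an inhibitor of the phosphatase calcineurin, which activates NFAT transcription factors. The labels do not name the cell type that was reprogrammed or how many clones it came from. RNA was measured on Affymetrix 3' arrays, 8 in all, and this small number sets the precision.

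Desmosomes are spot-like junctions that tie the keratin filaments of neighbouring epithelial cells together. Desmogleins and desmocollins are cadherins that span the membrane and bind those of the next cell. Inside the cell the armadillo proteins plakoglobin and the plakophilins bind the cadherin tails, and desmoplakin links them to keratin. Fibroblasts lack most of these proteins, and cells gain them when they take on an epithelial state, as they do early in reprogramming.

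Part of the desmosome genes rose with CSA at day 3, 4 of the 9, where 7.14% of all tested genes rose. None of the 9 was detectably higher with CSA at day 6, where only 6.41% of all tested genes were. At day 3 the cadherins Dsg2 and Dsc2 rose 3.58-fold and 2.35-fold with CSA, and the plaque genes Pkp1 and Dsp rose 1.41-fold and 1.36-fold. At day 6 Dsp fell, 1.30-fold, a call near the threshold that ended under several alternatives. The CSA effect was lower at day 6 than at day 3 for Dsg2, Dsc2, Pkp1 and Dsp by the test of the difference itself. Dsg2 and Dsc2 also rose from day 3 to day 6 in DMSO.

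Values are log2 signals, and differences are in log2 units with limma's moderated standard error after ±, from a fit of all 8 arrays with 2 per group. Adjusted p-values are those of limma after the Benjamini-Hochberg method over 27022 probe sets, with a threshold of 0.05. Replicate arrays correlated at 0.968 to 0.974. In cell mixtures such as these, fewer cells of a type and less RNA per cell cannot be told apart.

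**Figure D1:**
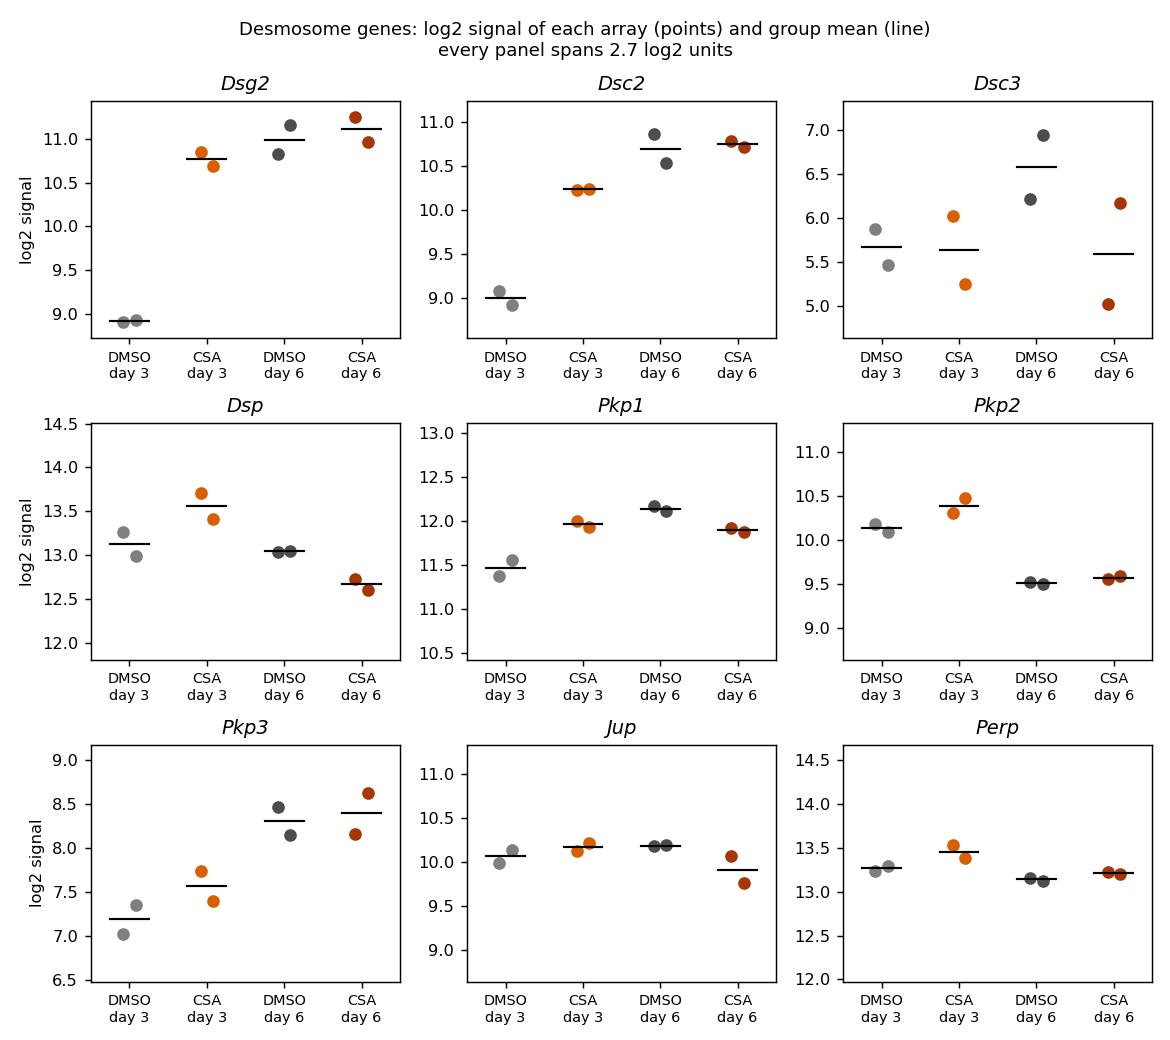
Log2 signal of the 9 desmosome genes on every array, with 2 points per group, a line at the group mean and the same span of log2 units in each panel. Dsg2 and Dsc2 lie near 9 in DMSO at day 3 and above 10 in the other 3 groups.

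Desmoglein 2 (Dsg2), the desmoglein found in most epithelia, including simple ones, had the largest response among the members at day 3. Its log2 signal was 8.91 and 8.94 in DMSO and 10.84 and 10.69 with CSA at day 3, and 10.82 and 11.15 in DMSO and 11.25 and 10.96 with CSA at day 6. Both DMSO arrays of day 3 were low, and each of the other 3 groups overlapped at least 1 other. The CSA effect was 1.84 ± 0.13 at day 3 (adjusted p = 1.66e-05) and 0.12 ± 0.13 at day 6 (adjusted p = 0.651). Its 6 probe sets were all higher with CSA at day 3, by 0.99 to 1.84, and 5 of them passed the threshold. At day 6 the 6 probe sets lay between -0.23 and 0.21 with 3 on either side of 0. The effect at day 6 minus that at day 3 was -1.72 ± 0.18 (adjusted p = 0.000914).

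Desmocollin 2 (Dsc2), the desmocollin that accompanies Dsg2 in most epithelia, also rose with CSA at day 3. Its log2 signal was 9.08 and 8.92 in DMSO and 10.23 and 10.24 with CSA at day 3, and 10.87 and 10.53 in DMSO and 10.78 and 10.71 with CSA at day 6. The 2 CSA arrays of day 3 lay between the DMSO arrays of day 3 and those of day 6 and overlapped neither. The CSA effect was 1.23 ± 0.12 at day 3 (adjusted p = 0.000133) and 0.05 ± 0.12 at day 6 (adjusted p = 0.869). The difference between these effects was -1.18 ± 0.17 (adjusted p = 0.00354). The other Dsc2 probe set gave a smaller CSA effect at day 3, 0.41 ± 0.20, that did not pass the threshold (adjusted p = 0.239).

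Desmocollin 3 (Dsc3), a desmocollin of basal layers of stratified epithelia, was dim. Its log2 signals ran from 5.02 to 6.95 over the 8 arrays, against the filter at 5.37, and its other probe set was below the filter. The 2 arrays of a group differed widely, at 5.02 and 6.17 with CSA at day 6. Its CSA effects of -0.03 ± 0.56 at day 3 (adjusted p = 0.984) and -0.99 ± 0.56 at day 6 (adjusted p = 0.321) were not distinguishable from 0 at this spread.

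The cadherin members are neighbours: in RefSeq's GRCm38.p6 annotation Dsc3, Dsc2, Dsc1, Dsg1c, Dsg1a, Dsg1b, Dsg4, Dsg3 and Dsg2 follow each other in this order, with no other protein-coding gene between them. Dsg2 and Dsc2, which rose with CSA at day 3, lie near opposite ends of the row, and Dsc3, at the outer end beside Dsc2, did not pass the threshold. Between them, Dsg1a and Dsg1b encode copies of desmoglein 1, a cadherin of the upper epidermis, and are alike enough that a probe set may read both. Dsg1a had log2 signals of 6.19 and 6.19 in DMSO and 6.97 and 7.16 with CSA at day 3, and of 6.08 and 5.88 in DMSO and 7.41 and 6.90 with CSA at day 6. The Dsg1a arrays did not overlap between treatments at either day. Its CSA effect was 0.87 ± 0.33 at day 3 (adjusted p = 0.134) and 1.18 ± 0.33 at day 6 (adjusted p = 0.0472). Leaving out any 1 array of day 6 ended the call of Dsg1a (adjusted p = 0.0759 to 0.235). Dsc1, another cadherin of upper epidermis, was below the filter.

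Desmoplakin (Dsp), which anchors keratin filaments to the plaque, was the 1 member whose CSA effect passed the threshold at both days, in opposite directions. Its log2 signal was 13.26 and 12.99 in DMSO and 13.71 and 13.42 with CSA at day 3, and 13.04 and 13.05 in DMSO and 12.73 and 12.61 with CSA at day 6. At day 3 both CSA arrays lay above both DMSO arrays, and at day 6 both lay below. The CSA effect was 0.44 ± 0.10 at day 3 (adjusted p = 0.0210) and -0.38 ± 0.10 at day 6 (adjusted p = 0.0428), and these differed by -0.82 ± 0.15 (adjusted p = 0.0120).

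With 1 array left out, Dsp often missed the threshold. At day 3 this happened without DMSO replicate 2 (adjusted p = 0.138) or CSA replicate 1 (0.189), and with a probe set specific to the gene (0.0568). At day 6 it happened whichever array of that day was left out (adjusted p = 0.0744 to 0.209), and for the difference between days without CSA replicate 1 of day 3 (0.0549) or DMSO replicate 2 of day 6 (0.0514). The 3 Dsp probe sets were all higher with CSA at day 3, by 0.35 to 0.80, and 2 of them passed. Some probe sets of Dsp and of Dsg2 read the same transcript record and are not independent. At day 6 the 3 Dsp probe sets lay at -0.48 to -0.03, of which 2 passed. The dimmest Dsp probe set overlapped between treatments at day 6, at 7.63 and 7.60 with CSA and 7.66 and 7.63 in DMSO.

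**Figure D2:**
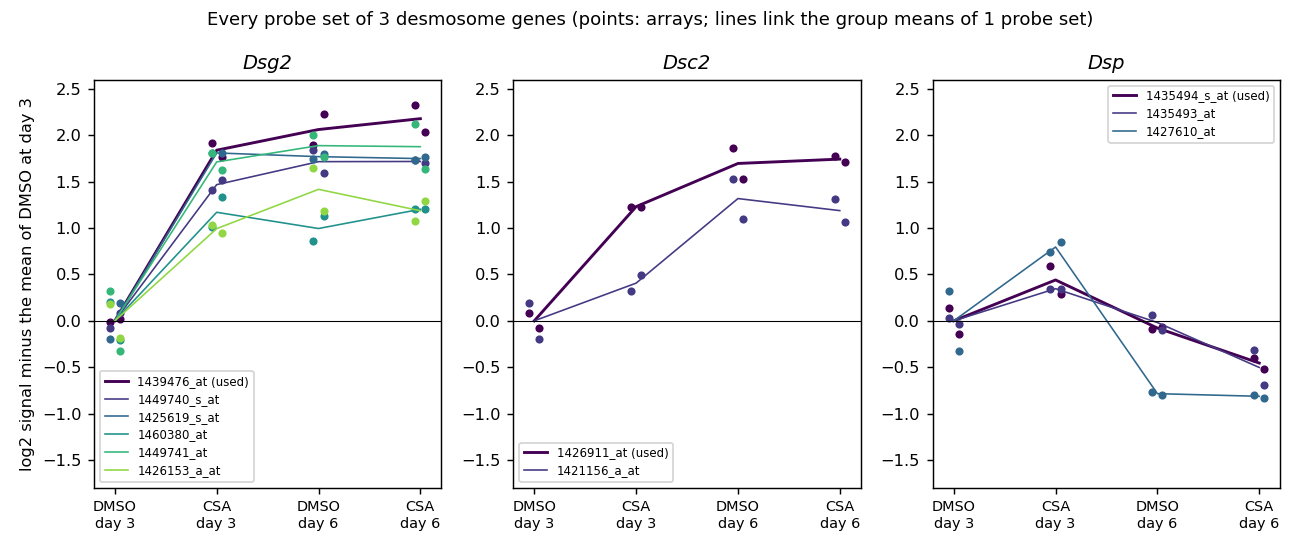
Log2 signal minus the mean of DMSO at day 3 for every probe set of Dsg2, Dsc2 and Dsp, with points for arrays and lines that link the group means of 1 probe set. All 6 probe sets of Dsg2 step up between DMSO and CSA at day 3 and stay there, and the 3 of Dsp go up with CSA at day 3 and lie at or below 0 at day 6.

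The stretch before the start of Dsp is shown because Dsp alone among the members that changed has one in the RefSeq table used, which held such a window for Dsp and Jup. It covers the 250 bases before the annotated start in GRCm38.p6, chr13:38151044-38151293 on the plus strand, written 5′ to 3′ with matches to GGGCGG (the GC box) and GGAAA (the core that NFAT factors bind) in capitals, on either strand.
Dsp: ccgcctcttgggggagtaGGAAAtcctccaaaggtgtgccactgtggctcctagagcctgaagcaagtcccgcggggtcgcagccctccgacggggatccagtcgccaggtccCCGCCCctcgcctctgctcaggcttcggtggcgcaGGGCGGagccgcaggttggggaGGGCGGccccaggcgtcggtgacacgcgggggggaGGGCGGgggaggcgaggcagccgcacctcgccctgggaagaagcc
The window held 4 matches to GGGCGG, a motif present in 32.7% of 32851 windows of the same length, and 1 match to GGAAA, present in 55.6% of them. The bases G and C made up 72.4% of it, against a median of 52.4% over all windows. The Jup window held 2 matches to GGGCGG and none to GGAAA. Neither window held CAGGTG (the E-box of Snail and Zeb factors), AACNGGTT (grainyhead factors) or TGANTCA (AP-1), on either strand. A match is only a run of letters, and no binding was measured.

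Plakophilin 1 (Pkp1), a plaque protein prominent in stratified epithelia, had log2 signals of 11.37 and 11.56 in DMSO and 12.00 and 11.93 with CSA at day 3, and of 12.17 and 12.11 in DMSO and 11.93 and 11.88 with CSA at day 6. The CSA arrays lay above the DMSO arrays at day 3 and below them at day 6. Its CSA effect was 0.50 ± 0.08 at day 3 (adjusted p = 0.00254) and -0.24 ± 0.08 at day 6, which did not pass (adjusted p = 0.0818). The effects differed by -0.74 ± 0.11 (adjusted p = 0.00492).

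The other armadillo members did not pass the threshold for CSA at either day. Plakophilin 2 (Pkp2), the plakophilin of heart and simple epithelia, was at 10.17 and 10.08 in DMSO and 10.31 and 10.47 with CSA at day 3, an effect of 0.26 ± 0.10 (adjusted p = 0.144). Another Pkp2 probe set stood at -0.05 there (adjusted p = 0.850), so the direction is not settled. Plakophilin 3 (Pkp3), found in most epithelia, was at 7.03 and 7.35 in DMSO and 7.73 and 7.40 with CSA at day 3, an effect of 0.38 ± 0.24 (adjusted p = 0.379). The other Pkp3 probe set, which was dim, gave 1.55 ± 0.56 (adjusted p = 0.117), and the mean of both gave 0.97 ± 0.33 (adjusted p = 0.0908). Plakoglobin (Jup), shared by desmosomes and adherens junctions, ranged from 9.76 to 10.21 over all 8 arrays, the narrowest span but that of Perp. The Jup effect was 0.10 ± 0.12 at day 3 (adjusted p = 0.673) and -0.27 ± 0.12 at day 6 (adjusted p = 0.174). At day 6 the CSA effects of Pkp2 and Pkp3 were 0.07 ± 0.10 and 0.09 ± 0.24 (adjusted p = 0.766 and 0.877).

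Perp, a tetraspan membrane protein of desmosomes that p53 and p63 induce, was at 13.23 and 13.29 in DMSO and 13.53 and 13.38 with CSA at day 3. Its CSA effect of 0.19 ± 0.06 did not pass (adjusted p = 0.0961). At day 6 Perp was at 13.15 and 13.12 in DMSO and 13.22 and 13.19 with CSA, an effect of 0.07 ± 0.06 (adjusted p = 0.570).

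**Figure D3:**
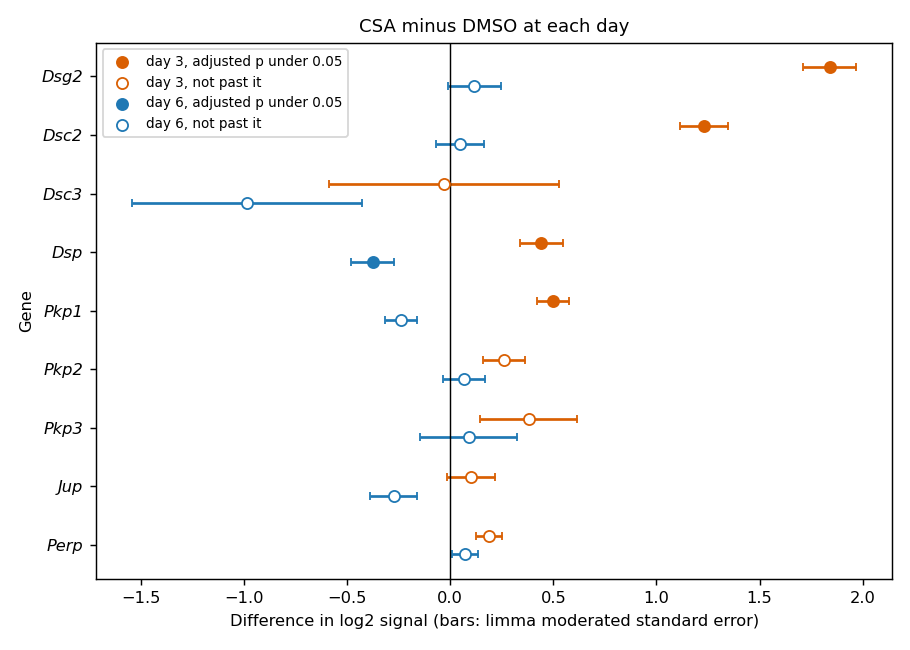
CSA minus DMSO in log2 units for each desmosome gene at day 3 and at day 6, with limma's moderated standard error as bars and filled points for adjusted p-values under 0.05. At day 3 the points for Dsg2, Dsc2, Pkp1 and Dsp are filled and to the right of 0, and at day 6 only that of Dsp is filled, to the left.

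Taken as a list, 4 of the 9 tested members rose with CSA at day 3 and 0 fell, where 7.14% of 12529 gene representatives rose and 5.52% fell. Because the list was chosen with earlier results of these data known, its counts and medians describe the members and are no test of an excess. The median difference of the members was 0.38, against -0.004 over all representatives. Both CSA arrays lay above both DMSO arrays for 7 of the 9, as they did for 28.2% of representatives. Without an intensity trend in limma's prior variance, 2 members passed at day 3, Dsg2 and Dsc2. At day 6, 0 members rose and 1 fell, where 6.41% of representatives rose and 6.11% fell, and the members' median was 0.05 against -0.01. By limma 2 of the 9 members had an unadjusted p under 0.05 in addition to Dsp at day 6, Pkp1 (0.0105) and Jup (0.0362), so 3 in all, where 28.8% of representatives did. For the difference between the CSA effects of the days, 4 members were lower at day 6 and 0 higher, where 3.43% and 2.36% of representatives were, 5.79% in all. Without the intensity trend none of these 4 passed (adjusted p = 0.10 to 0.182), nor did any other representative. All 9 members had a difference below 0, from -1.72 to -0.12, with a median of -0.74 against -0.006 over all representatives.

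The summed signal of the 6 epithelial markers Cdh1, Epcam, Krt8, Krt18, Cldn4 and Cldn7, which weighs bright genes most, is given beside these values. On the log2 scale it was 14.3 to 14.4 in DMSO and 14.7 in both arrays with CSA at day 3, and 15.2 to 15.3 in DMSO and 14.8 in both arrays with CSA at day 6. With CSA 4 of the 6 rose at day 3 (Cdh1, Krt8, Cldn4 and Cldn7), where 7.14% of representatives rose. At day 6, 4 fell (Cdh1, Epcam, Krt8 and Cldn7), where 6.11% of representatives fell. The calls of Cdh1, Krt8 and Cldn4 at day 3 and of Epcam at day 6 depended on single arrays. Epcam and Krt18 stood at -0.37 ± 0.14 (adjusted p = 0.137) and -0.48 ± 0.17 (adjusted p = 0.111) at day 3, and Krt18 at 0.39 ± 0.17 at day 6 (adjusted p = 0.189). Without the intensity trend 0 of the 6 passed at either day. The summed signal of 11 fibroblast markers was 14.5 to 14.6 in DMSO and 14.4 to 14.5 with CSA at day 3, and 15.3 and 15.0 at day 6. Of the 10 tested fibroblast markers 1 rose (Col1a2) and 2 fell (Col3a1 and Dcn) with CSA at day 3, and 2 fell at day 6 (Col3a1 and Postn). At day 3 the calls of Col1a2 and Dcn ended with averaged probe sets (limma adjusted p = 0.143 and 0.129). That of Col3a1 at day 3 ended without the filter (0.057). The part of either cell state in the values of the desmosome genes was not tested.

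Markers of other cell types were below the filter in part. This held for 4 of the 7 blood cell markers with a probe set (Ptprc, Cd3e, Itgam and Alas2), 3 of 5 endothelial markers (Pecam1, Cdh5 and Vwf), 4 of 6 cardiac muscle markers (Myh6, Myl2, Tnni3 and Nppa) and 2 of 5 pluripotency markers (Nanog and Zfp42). The filter is on the mean over all arrays, and Nanog lay above its cut on every array of day 6. Nanog was at 7.505 and 7.565 in DMSO and 7.199 and 6.207 with CSA at day 6. At day 3 it was at 3.338 and 5.393 in DMSO and 1.778 and 1.243 with CSA. The summed cardiac signal was 9.29 to 9.32 in DMSO and 8.71 to 8.82 with CSA at day 3, and 10.4 to 10.5 in DMSO and 9.60 to 9.62 with CSA at day 6. The endothelial sum was 10.6 in DMSO and 10.5 to 10.6 with CSA at day 3, and 10.5 to 10.6 against 11.0 at day 6. Of the tested markers of these lists, limma called Myl7 lower with CSA at day 3 (-0.82 ± 0.23, adjusted p = 0.0493), and Tnnt2 lower (-0.93 ± 0.18, adjusted p = 0.00940) and Tek higher (0.46 ± 0.10, adjusted p = 0.0142) at day 6, each ending with at least 1 array left out. No marker of these lists was at a signal of 0 on any array, and their part in the values of the desmosome genes was not tested.

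The next comparison asked how the members moved from day 3 to day 6 in each treatment. In DMSO the cadherins Dsg2 and Dsc2 rose by 2.06 ± 0.13 and 1.70 ± 0.12 (adjusted p = 6.67e-07 and 1.30e-06), or 4.18-fold and 3.24-fold. Pkp3 rose by 1.12 ± 0.24 (adjusted p = 0.00271) from 7.03 and 7.35 to 8.46 and 8.15, and Pkp1 by 0.68 ± 0.08 (adjusted p = 4.39e-05). Pkp2 went the other way, from 10.17 and 10.08 at day 3 to 9.51 and 9.49 at day 6, a change of -0.63 ± 0.10 (adjusted p = 0.000484). The other bright Pkp2 probe set fell by 0.85 (adjusted p = 0.000123), 2 dim ones stood at -0.23 and 0.33, and the mean of all 4 did not pass (-0.34, adjusted p = 0.119). Thus 4 of 9 members rose and 1 fell in DMSO, where 26.1% of representatives rose and 19.6% fell, 45.7% in all. The members' median was 0.68 against 0.08 over all representatives.

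With CSA the course between the days differed for several members. Dsg2 was 0.34 ± 0.13 higher at day 6 (adjusted p = 0.0657), and Dsc2 rose by 0.51 ± 0.12 (adjusted p = 0.00681). Dsp fell by 0.90 ± 0.10 (adjusted p = 9.45e-05), with all 3 of its probe sets past the threshold, at -1.61 to -0.85. In DMSO the Dsp representative stood at -0.08 ± 0.10 (adjusted p = 0.591), and its dimmest probe set changed by -0.79 ± 0.21 (adjusted p = 0.0103).

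Pkp2 fell by 0.82 ± 0.10 with CSA (adjusted p = 0.000145), from 10.31 and 10.47 to 9.55 and 9.59. Pkp3 rose by 0.83 ± 0.24 (adjusted p = 0.0202), but not with CSA replicate 2 of day 3 (adjusted p = 0.131) or of day 6 (0.159) left out. Perp fell by 0.24 ± 0.06 (adjusted p = 0.0146), but not with CSA replicate 1 of day 3 (adjusted p = 0.152) or CSA replicate 2 of day 6 (0.0656) left out. Pkp1 stood at -0.06 ± 0.08 (adjusted p = 0.599). In all 2 members rose and 3 fell with CSA, where 20.2% of representatives rose and 15.8% fell, 36.1% in all. The members' median was -0.06 against 0.08 over all representatives. The test of the difference between the 2 courses is that of the CSA effects above.

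**Figure D4:**
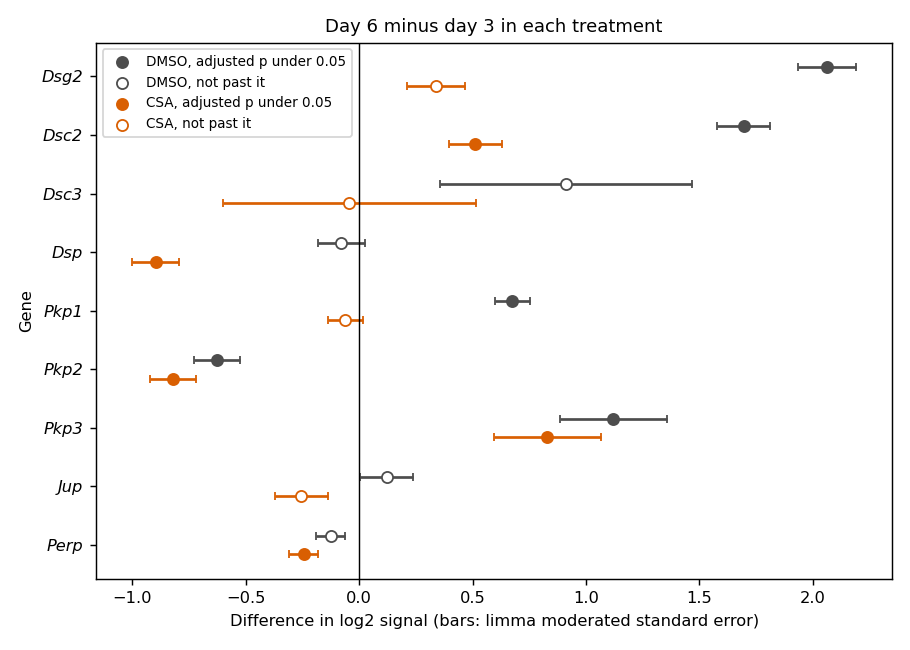
Day 6 minus day 3 in log2 units for each desmosome gene in DMSO and with CSA, with limma's moderated standard error as bars and filled points for adjusted p-values under 0.05. Pkp2 is to the left and Pkp3 to the right of 0 in both treatments, and all 9 members lie farther right in DMSO than with CSA.

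Directions between days depend on how arrays are scaled. Centring each array on the median of its tested probe sets moved the median over all representatives from 0.08 to -0.17 in DMSO and from 0.08 to -0.14 with CSA, and the share of representatives that rose and fell to 15.9% and 32.2% in DMSO and to 11.5% and 28.2% with CSA. Under that scaling 4 members rose and 3 fell in DMSO, with Dsp and Perp added to the falls, and 0 rose and 5 fell with CSA (Dsp, Pkp1, Pkp2, Jup and Perp). The calls of Dsc2 (adjusted p = 0.0771) and Pkp3 (0.0660) between days with CSA ended there.

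The comparisons at day 3 and between days in DMSO share the DMSO arrays of day 3, so their values are set side by side only. The mean log2 signal of Dsg2 went from 8.93 in DMSO at day 3 to 10.77 with CSA at day 3, and stood at 10.99 in DMSO at day 6. That of Dsc2 went from 9.0 to 10.23 and stood at 10.70, and that of Pkp1 from 11.47 to 11.97 and stood at 12.14. Dsp, at 13.12 in DMSO and 13.56 with CSA at day 3, stood at 13.05 in DMSO at day 6. Pkp2, at 10.13 and 10.39, stood at 9.50. Pkp3, at 7.19 and 7.57, stood at 8.31. Of these, Pkp2 and Pkp3 were not past the threshold for CSA at day 3, and Dsp was not past it between days in DMSO.

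The remaining genes of the desmosome and its plaque came from a list of 10. Of 7 tested genes (Dsg1a, Dsg1b, Cdsn, Evpl, Ppl, Pkp4 and Kazn) limma called 0 for CSA at day 3, with 3 at an unadjusted p under 0.05, where 12.7% of representatives were called and 29.0% had such a p. At day 6, 1 rose and 1 fell, where 12.5% of representatives were called. Envoplakin (Evpl), a relative of desmoplakin in the cornified envelope, fell by 0.65 ± 0.13 at day 6 (adjusted p = 0.00944), though the adjusted p was 0.0769 with DMSO replicate 1 left out and 0.0624 with CSA replicate 1 left out. The Evpl arrays were at 10.33 and 10.22 in DMSO and 9.52 and 9.71 with CSA. Corneodesmosin (Cdsn), which joins desmosomes of the upper epidermis, was at 1.16 ± 0.34 (adjusted p = 0.0518).

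Keratins, the filaments that desmosomes hold, moved in both directions. With CSA 5 of 12 tested keratins rose and 1 fell at day 3 (median 0.26), where 12.7% of representatives were called. At day 6, 2 keratins rose and 2 fell (median 0.12), where 12.5% of representatives were called. Without the intensity trend 2 keratins passed at day 3 and 1 at day 6. Krt1 rose at day 3 and day 6, by 1.46 ± 0.27 (adjusted p = 0.00599) and 1.62 ± 0.27 (adjusted p = 0.00316). Krt19 was lower at both days, at -0.81 ± 0.11 (adjusted p = 0.00107) and -0.62 ± 0.11 (adjusted p = 0.00516). Krt16 and Krt17, keratins of stressed epidermis, rose by 0.69 ± 0.07 (adjusted p = 0.000221) and 1.32 ± 0.15 (adjusted p = 0.000379) at day 3, of which Krt17 did not pass when its probe sets were averaged (adjusted p = 0.309). Krt8, the partner of Krt18 in simple epithelia, rose by 0.34 ± 0.07 at day 3 (adjusted p = 0.00697, or 0.0683 without CSA replicate 1) and fell by 0.53 ± 0.07 at day 6 (adjusted p = 0.000529), a difference of -0.88 ± 0.09 (adjusted p = 0.000914). Krt6a, another keratin of stressed epidermis, rose by 1.66 ± 0.12 at day 6 (adjusted p = 1.95e-05), and the effect differed between days by 1.40 ± 0.17 (adjusted p = 0.00196). Thus Krt8 turned from higher to lower, as Dsp did with less certain calls, and Krt6a did not.

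The neighbouring junctions were also looked at. Of 13 tested adherens junction genes 3 rose and 1 fell with CSA at day 3 (median 0.08), and 3 rose and 3 fell at day 6 (median -0.01). E-cadherin (Cdh1) fell by 0.50 ± 0.07 at day 6 (adjusted p = 0.000879), while N-cadherin (Cdh2), the cadherin of mesenchymal cells, rose by 1.13 ± 0.08 (adjusted p = 1.95e-05). The effects on Cdh1 and Cdh2 differed between days by -0.79 ± 0.09 (adjusted p = 0.00171) and 1.05 ± 0.12 (adjusted p = 0.00124). Hemidesmosomes tie keratin to the basement membrane. Of 8 tested hemidesmosome genes 3 rose and 0 fell at day 3 (median 0.16), and 1 rose at day 6 (median -0.21). Over all representatives 12.7% were called at day 3 and 12.5% at day 6. The day 3 rises of Cdh1 and Afdn (adherens junction) and of Plec (hemidesmosome) depended on single arrays. The laminin chain Lama3 rose by 0.94 ± 0.12 at day 3 (adjusted p = 0.000634) and its effect differed between days by -1.29 ± 0.17 (adjusted p = 0.00230).

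Of 15 tested regulators of epithelial junction genes 3 rose with CSA at day 3 (median 0.44) and 2 at day 6 (median 0.20), with 0 lower at either day. The epithelial factor Ehf rose by 1.19 ± 0.13 at day 3 (adjusted p = 0.000256). Zeb1, a repressor of epithelial genes, rose by 0.63 ± 0.14 at day 3 (adjusted p = 0.0147) and by 0.53 ± 0.14 at day 6 (adjusted p = 0.0328). Neither Zeb1 call was kept when its probe sets were averaged (adjusted p = 0.419 and 0.927), nor with single arrays left out (0.0508, 0.0600 and 0.135 at day 3 without DMSO replicate 1, DMSO replicate 2 or CSA replicate 1, and 0.0729 to 0.202 without any array of day 6). Grhl1, a grainyhead factor, rose by 1.13 ± 0.31 (adjusted p = 0.0394), though the adjusted p was 0.191, 0.236 and 0.0812 with DMSO replicate 2, CSA replicate 1 or CSA replicate 2 of day 3 left out. The repressor Snai2 rose by 0.59 ± 0.12 at day 6 (adjusted p = 0.00919), though the adjusted p was 0.0534, 0.0664 and 0.0664 with DMSO replicate 1, DMSO replicate 2 or CSA replicate 2 left out, and 0.304 without probe sets that can read several genes, of which its own is 1. Trp63, the p53 relative of basal epidermis, was below the filter, which is on the mean over all arrays. It was at 2.555 and 5.472 in DMSO and 5.571 and 4.552 with CSA at day 3. At day 6 it lay above the cut on every array, at 6.223 and 6.001 in DMSO and 5.604 and 6.227 with CSA. The shares of all representatives given above for each day are the background for these lists, and no list was tested against other genes.

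**Figure D5:**
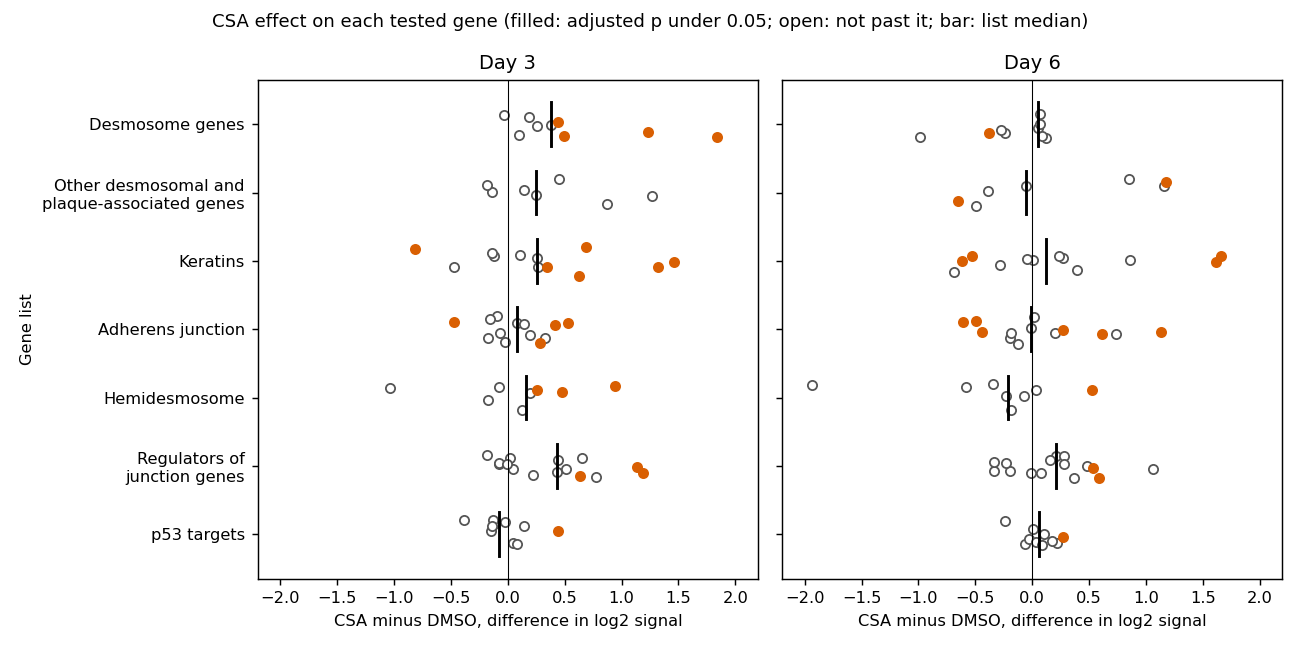
CSA minus DMSO in log2 units at day 3 and day 6 for every tested gene of the desmosome genes and of 6 related lists, with filled points past the threshold and a bar at the median of each list. The desmosome genes have a median of 0.38 at day 3 and 0.05 at day 6, and the p53 targets have medians of -0.07 and 0.06.

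To see which genes moved most like Dsg2 over the 8 arrays, log2 signals were correlated with those of 5332 representatives whose range was at least 1. The 5 most alike were Hook1 (Pearson r = 0.982, Spearman rho = 0.786), Stxbp5 (0.981 and 0.833), Coro2b (0.978 and 0.929), Lmntd2 (0.977 and 0.952) and Bhlhe40 (0.976 and 0.905). Dsc2 came 14th among these genes, with r = 0.961 and rho = 0.667. For Dsp the 5 most alike were Vsig8 (r = 0.973, rho = 0.905), Adgrd1 (0.965 and 0.905), Top1mt (0.952 and 0.952), Pnma2 (0.945 and 0.905) and Acy1 (0.926 and 0.833). Dsg2 and Dsp themselves had r = -0.152 and rho = -0.381. With Dsp, Pkp2 had r = 0.772 and rho = 0.571, Perp had 0.754 and 0.548, and Pkp3 had -0.583 and -0.571. With Dsg2, Pkp1 had r = 0.898 and rho = 0.452. Pkp1, Pkp2 and Perp had ranges under 1 and so were not among the ranked genes. These are descriptions over 8 arrays in 4 groups, which share the group differences.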

How the data were processed

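Total RNA of 8 samples was hybridised to Affymetrix 3' arrays. The table that the authors deposited holds log2 signals of 45037 probe sets, made with MAS5 per the submitters' processing notes. No version, scaling target or floor is stated there. The anti-logged values, with the extremes trimmed, averaged 496.8 to 497.5 on every array, and arrays were not quantile normalized. Low signals are compressed or inflated by background, so differences of dim probe sets are uncertain.

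Platform annotation gave 1 symbol for 34945 probe sets. The 27022 probe sets with a mean at or above the 40th percentile were fitted with limma 3.58.1 in R 4.3.3, 1 mean per group, an intensity trend in the prior variance, two-sided tests and Benjamini-Hochberg adjustment. Symbols were updated by Entrez ID. The pipeline was tested on simulated data.

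Members and gene lists were chosen with earlier results of these data known. Named genes are all members, up to 3 genes per related list with the smallest adjusted p in each CSA comparison (at day 3, at day 6 and their difference), and the 5 genes most like Dsg2 and Dsp. Others, such as Krt19, genes below the filter (Trp63, Dsc1) or cadherins beside the members, were named after their values were seen. Promoter windows came from RefSeq (GRCm38.p6) and were found for 2 of the 10 members. Alternatives were other normalizations, filters, priors, pseudocounts and probe set choices, a replicate block and leaving out each array. The replicate numbers are not shown to pair the arrays. Deviations of same-numbered arrays correlated at -0.003 to 0.034, so no shared replicate effect was seen, which does not exclude pairing.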

Additional observations from a re-analysis of the deposited data

Results flagged for a closer look

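The CSA effect differed between the days for 4 desmosome genes by limma's interaction test. The effect at day 6 minus that at day 3 was -1.72 for Dsg2, -1.18 for Dsc2, -0.82 for Dsp and -0.74 for Pkp1. For Dsg2 and Dsc2 a rise at day 3 was followed by no detectable effect at day 6. For Dsp a rise was followed by a fall, but its call at day 6 lay near the threshold (limma adjusted p = 0.0428). That call ended without the filter (0.0582) and with averaged probe sets (0.0948), and the Dsp calls depended on single arrays, as given above. In all 4 genes both CSA arrays of day 3 lay above both DMSO arrays of that day, as they did for 28.2% of representatives. These genes had been called higher at day 3 from the same arrays, so this adds no support. Leaving out any 1 array kept the interaction calls of Dsg2, Dsc2 and Pkp1, and those of all 4 genes ended without the intensity trend (adjusted p = 0.10 for Dsg2, 0.113 for Dsc2, 0.182 for Dsp and 0.137 for Pkp1). What lies behind the difference was not tested.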

How the results depend on the processing

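The rises of Dsg2 and Dsc2 with CSA at day 3 kept their direction and their side of the threshold under all 16 alternatives, at 1.5 to 1.92 and 0.82 to 1.31. The count of members past the threshold for CSA at day 3 was 4, and 2 without the intensity trend. For CSA at day 6 it was 1, and 2 with quantile normalization, where 12.5% and 14.3% of representatives passed. It was 0 by limma when arrays were centred, without the filter, without the trend and when probe sets of a gene were averaged (2, 3, 1 and 3 of 9 members at an unadjusted p under 0.05, where 28.4%, 22.2%, 23.0% and 26.9% of representatives were), and 0 to 0 without each array of day 6 in turn (1 to 3 at such a p, where 21.7% to 25.2% of representatives were). For the difference between days it was 4, and 0 without the trend, where limma called 0% of all representatives and 4 members had an unadjusted p under 0.05, as did 17.9% of representatives. Between days with CSA it was 5, 3 with quantile normalization and 2 without the trend, where 36.1%, 31.4% and 23.5% of representatives passed. Without the trend 2.19% of representatives passed at day 3 and 3.38% at day 6. The cause of these changes was not tested. Without each array in turn the counts were 3 to 4 at day 3, 3 to 4 for the difference between days, 5 to 5 between days in DMSO and 4 to 6 with CSA.

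A sign changed in 21 cases, of which 0 were past the threshold in either fit. For Dsc3 these were 0.082 (quantile) for CSA at day 3, where leaving out 1 array gave -0.415 to 0.352, and values between days with CSA of -0.614 to 0.528 with 1 array left out. For Pkp2 without probe sets that can read several genes they were -0.052 at day 3, -0.016 at day 6 and 0.036 for their difference, and with averaged probe sets -0.112 at day 6. At day 6 Dsg2 ranged from -0.047 to 0.281 with 1 array left out. Dsc2 was at -0.042 with averaged probe sets and ranged from -0.118 to 0.213 with 1 array left out. Pkp3 was at -0.077 with averaged probe sets and ranged from -0.144 to 0.324. Between days in DMSO, Dsp was at 0.149 (quantile) and -0.215 to 0.059 with 1 array left out, Jup at -0.129 (centred) and Perp at 0.106 (quantile). Pkp1 between days with CSA was at 0.034 (quantile).

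The replicate block left the counts at 4, 1, 4, 5 and 5. The numbers are not shown to pair arrays, as deviations of same-numbered arrays correlated above 0 in 5 of 6 pairs of groups but at most at 0.034. With 2 arrays per group, small differences such as those of Jup and Perp lie near the limit of what could be detected, and Dsc3 lies near background.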

Other observations

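Perp is also a target of p53. Of 10 other tested targets 1 rose with CSA at day 3 and 1 at day 6, a share near that of all representatives called (12.7% and 12.5%), with medians of -0.07 and 0.06. Sesn2 rose by 0.45 ± 0.12 at day 3 (limma adjusted p = 0.0347), a call that ended without DMSO replicate 1 (0.0574), DMSO replicate 2 (0.141), CSA replicate 1 (0.181) or CSA replicate 2 (0.118). Ccng1, which encodes cyclin G1, rose by 0.27 ± 0.07 at day 6 (limma adjusted p = 0.0289), a call that ended without DMSO replicate 2 (0.227) or CSA replicate 1 (0.155).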
